A study of Mus musculus with 6 samples.

Results

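Mitochondrial oxidation of long-chain fatty acids was followed through 10 genes in the gonadal white fat pad (gWAT) of mice on normal chow (NCD) and on a high-fat diet (HFD), to show how the HFD relates to their transcript levels. The genes were taken by name, as the rows of the deposited count table whose NCBI gene identifier belongs to Cpt1a, Cpt1b, Slc25a20, Cpt2, Acadvl, Acadl, Acadm, Hadha, Hadhb or Acaa2, so that 10 of the 19790 listed genes are described. The rule uses no measured value, although the genes were picked with earlier results of these data known. RNA-seq was done on 6 male wild-type C57BL/6 mice, 3 per diet, each diet having been given for 8 weeks. The labels put the mice at 6 weeks of age for the diets, and the study's methods give 8 weeks of age. No transgene, deletion or drug was part of either group, and the RNA came from whole fat pads, which hold adipocytes, macrophages, endothelial and stromal cells together. In such bulk RNA, fewer cells of a type and less RNA per cell cannot be told apart.

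These genes encode the route by which a long-chain fatty acid enters the mitochondrion and is shortened. Cpt1 at the outer membrane turns acyl-CoA into acylcarnitine, Slc25a20 carries it across the inner membrane, and Cpt2 restores acyl-CoA. Acyl-CoA dehydrogenases of different chain-length preference start each round of beta-oxidation, the trifunctional protein of Hadha and Hadhb carries out the later steps on long chains, and thiolases such as Acaa2 release acetyl-CoA. White fat mainly stores triglyceride and oxidises less fatty acid than brown fat, heart or liver. Cpt1 is inhibited by malonyl-CoA, the product of acetyl-CoA carboxylase, which ties fatty acid entry to fatty acid synthesis.

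RefSeq promoter windows for assembly GRCm38.p6, the 250 bases before each annotated start, were found for 8 of the 10 genes and not for Cpt1b and Acaa2. GGGCGG, the GC box (or CCGCCC, the same motif on the other strand), was present in 6 of the 8 windows and in 32.7% of the 32851 windows of the table. The windows of Hadha and Hadhb overlap, and the only GC box in that of Hadha also lies in that of Hadhb. This site is therefore counted for both genes. AGGTCA, a nuclear receptor half-site (or TGACCT on the other strand), was present in 3 of the 8 and in 14.0% of all windows. The 2 motifs do not overlap each other in the stretches shown. Printed here are the stretches without annotated exons for the genes on which the diet comparison turns: Cpt1a (chr19:3323051-3323284, plus strand), Cpt2 (chr4:107923611-107923839, minus strand) and Acadvl (chr11:70015429-70015678, minus strand), together with the stretch between the divergent genes Hadha and Hadhb (chr5:30155163-30155247, plus strand, the strand of Hadhb). Capitals mark both motifs, and a match is a description of the letters only.
Cpt1a: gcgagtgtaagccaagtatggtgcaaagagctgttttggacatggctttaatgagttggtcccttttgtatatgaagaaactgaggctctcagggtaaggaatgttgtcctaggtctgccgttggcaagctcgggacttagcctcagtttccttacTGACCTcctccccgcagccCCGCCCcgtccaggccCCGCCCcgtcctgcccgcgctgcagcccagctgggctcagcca
Cpt2: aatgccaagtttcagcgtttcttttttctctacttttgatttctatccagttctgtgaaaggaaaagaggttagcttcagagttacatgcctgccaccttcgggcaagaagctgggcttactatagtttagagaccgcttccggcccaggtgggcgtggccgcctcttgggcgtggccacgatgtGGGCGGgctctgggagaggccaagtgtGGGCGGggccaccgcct
Acadvl: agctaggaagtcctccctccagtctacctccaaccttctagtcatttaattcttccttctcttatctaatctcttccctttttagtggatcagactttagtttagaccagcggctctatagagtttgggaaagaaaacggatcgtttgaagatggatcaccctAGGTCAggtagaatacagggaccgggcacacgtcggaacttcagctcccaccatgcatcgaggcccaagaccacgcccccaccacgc
Hadha and Hadhb: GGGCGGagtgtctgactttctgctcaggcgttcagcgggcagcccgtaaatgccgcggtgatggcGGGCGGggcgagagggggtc

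In these stretches the half-site stood before Cpt1a and Acadvl and not before Cpt2, and GC boxes stood before Cpt1a, before Cpt2 and between Hadha and Hadhb but not before Acadvl. The starts of Hadha and Hadhb lie 272 bases apart on opposite strands, so both genes share this sequence. Half-sites lay in the windows of Cpt1a, Acadvl and Acadm, the last of which is not printed. In the comparison without 1 NCD library given below, Cpt1a rose on HFD, Acadvl fell and Acadm was not called. Any link between the half-site and these changes was not tested.

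Libraries held between 49575113 and 66360046 counted reads. NCD replicate 1 stood apart from the other 5. Genes of the seminal vesicle, a gland that lies beside this fat pad, took 58.6% of its reads, against 11.2% and 2.30% in NCD replicates 2 and 3 and at most 1.21e-05% in each HFD library. The summed level of 10 adipocyte markers in it was 6159 CPM, the reads of a gene relative to the library total, after scaling by the trimmed mean of M-values (TMM-scaled CPM), against 22844 and 31753 in the other NCD mice and 13262 to 17760 in the HFD mice. None of the 10 markers was at 0 in any library. The edgeR results of the 10 genes are therefore given with all 6 mice and without NCD replicate 1, other measures are given by mouse or with all 6 mice unless stated, and levels are in TMM-scaled CPM unless a scale is named.

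With all 6 mice, 0 of the 10 genes passed an adjusted p of 0.05 in edgeR's quasi-likelihood test, which called 5.58% of the 15241 genes tested higher on HFD and 1.90% lower. At an unadjusted p under 0.05 there was 1 of the 10, Cpt1a, against 29.7% of all genes tested, and DESeq2 too called Cpt1a alone of the 10, against 23.0% of the 16780 genes to which it gave an adjusted p. Without NCD replicate 1, 3 of the 10 passed: Cpt1a rose, and Cpt2 and Acadvl fell. In that fit 10.7% of the 15510 genes tested were called higher and 10.1% lower, so that 1 rise and 2 falls among 10 genes lie near the share over all genes. The median log2 fold change of the 10 genes was -0.07 with all mice, beside -0.08 over all genes, and -0.34 without NCD replicate 1, beside 0.02. All 10 passed the filter on low counts.

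The first gene of the carnitine shuttle, Cpt1a (gene 12894, chr19:3322326-3385735), encodes the Cpt1 form best known from liver. Its level was 119.7, 128 and 101 in NCD replicates 1, 2 and 3, and 224, 190.2 and 183 in HFD replicates 1, 2 and 3. Every HFD mouse lay above every NCD mouse, and NCD replicate 1 was level with the other NCD mice. The means were 116 ± 13.9 (SD, n = 3) on NCD and 199 ± 21.7 (SD, n = 3) on HFD. The log2 fold change was 0.77 ± 0.174 (SE) with an adjusted p of 0.0518 in edgeR, which does not pass. It was 0.81 ± 0.166 without NCD replicate 1, a 1.75-fold rise with an adjusted p of 0.0258. DESeq2 gave 0.79 ± 0.190 over all 6 mice, with an adjusted p of 0.0004.

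Cpt1b (gene 12895, chr15:89416405-89425862), the form typical of muscle and brown fat, was near the floor of the table. It had 23, 201 and 241 reads in the NCD libraries and 531, 375 and 373 in the HFD libraries. These reads gave levels of 0.700, 3.36 and 4.48 on NCD and 9.21, 4.50 and 5.95 on HFD. The diets were separated by the small gap between NCD replicate 3 and HFD replicate 2 only. Its log2 fold change was 1.19 ± 0.670 (SE, adjusted p = 0.282 in edgeR), and 0.75 ± 0.359 without NCD replicate 1 (adjusted p = 0.188). Of its exon bases, 2744 are shared with Gm44502, a gene on the same strand that was listed at 0.252 to 3.88 across the 6 mice, so the split of reads between both is uncertain. The summed level of 8 striated muscle markers, of which 1 of 5 tested fell (Actn3), was 58.8 to 403 on NCD and 21.1 to 25.2 on HFD, with Myh4 at 0 reads in 5 of 6 libraries. That of 7 brown and beige fat markers, 0 of 6 tested being called (2 at an unadjusted p under 0.05), was 4.66 to 14.3 and 4.35 to 6.55, with Ucp1 at 0 reads in each NCD library and at 6 in each HFD library. Their part in the level of Cpt1b was not tested.

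Slc25a20 (gene 57279, chr9:108662136-108684642), the carnitine-acylcarnitine carrier of the inner membrane, had levels of 18.7, 55.3 and 60.0 on NCD. The HFD mice had 62.6, 55.0 and 58.0. Apart from NCD replicate 1, the 5 libraries lay within a narrow band, and the diets overlapped. Its log2 fold change was 0.39 ± 0.421 with all mice (adjusted p = 0.563, edgeR) and 0.04 ± 0.112 without NCD replicate 1 (adjusted p = 0.845).

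Cpt2 (gene 12896, chr4:107903982-107923589), the inner-membrane transferase, had levels of 50.3, 131 and 152 on NCD. On HFD the levels were 57.5, 70.5 and 57.7. NCD replicate 1 lay below all HFD mice, while the other 2 NCD mice lay above all of them. The log2 fold change was -0.84 ± 0.404 with all mice (adjusted p = 0.221, edgeR). It was -1.17 ± 0.147 without NCD replicate 1 (adjusted p = 0.0086), a level 2.26-fold lower on HFD.

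Acadvl (gene 11370, chr11:70010183-70015428) encodes the very-long-chain acyl-CoA dehydrogenase, bound to the inner membrane. Its levels were 88.8, 198 and 206 on NCD and 95.1, 100.05 and 91.2 on HFD. As with Cpt2, NCD replicate 1 was the lowest library and the other NCD mice were above the HFD mice. The log2 fold change was -0.78 ± 0.331 with all mice (adjusted p = 0.177, edgeR) and -1.07 ± 0.111 without NCD replicate 1 (adjusted p = 0.0067), when the level was 2.097-fold lower on HFD. Acadvl shares 976 exon bases with Dvl2 on the opposite strand, and no source used here names the strand setting of the counting. Dvl2 was at 12.0 to 18.5 in the 6 mice.

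Acadl (gene 11363, chr1:66830839-66863309), the long-chain dehydrogenase, had levels of 80.8, 178 and 231 on NCD and 185, 142 and 125 on HFD. Acadm (gene 11364, chr3:153922353-153944643), the medium-chain dehydrogenase, had 111, 321 and 439 on NCD and 364, 230.2 and 190.0 on HFD. For both genes the diets overlapped, and within each diet 1 mouse (NCD replicate 3 and HFD replicate 1) was the highest. The log2 fold change of Acadl was -0.12 ± 0.397 (adjusted p = 0.861, edgeR), and that of Acadm was -0.15 ± 0.526 (adjusted p = 0.867). Leaving out NCD replicate 1 gave -0.43 ± 0.213 (adjusted p = 0.2004) and -0.53 ± 0.311 (adjusted p = 0.271).

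Both subunits of the trifunctional protein overlapped between the diets. Hadha (gene 97212, chr5:30119423-30154980), the hydratase and dehydrogenase subunit, had 146, 262 and 276 on NCD and 272, 183 and 168 on HFD. Hadhb (gene 231086, chr5:30155253-30184593), the thiolase subunit, had 111, 243 and 301 on NCD and 298, 188 and 162 on HFD. The lowest value of each was in NCD replicate 1, and the highest lay in NCD replicate 3 with HFD replicate 1 close to it. The log2 fold change was -0.13 ± 0.323 for Hadha (adjusted p = 0.803, edgeR) and -0.02 ± 0.423 for Hadhb (adjusted p = 0.985). These values were -0.36 ± 0.231 (adjusted p = 0.307) and -0.32 ± 0.286 (adjusted p = 0.459) without NCD replicate 1.

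Acaa2 (gene 52538), a mitochondrial thiolase acting on shorter acyl-CoA, had levels of 39.5, 94.5 and 91.1 on NCD and 161, 123 and 114 on HFD. All HFD mice lay above all NCD mice. Acaa2 had a log2 fold change of 0.82 ± 0.360 with all mice (adjusted p = 0.190, edgeR) and 0.53 ± 0.175 without NCD replicate 1 (adjusted p = 0.0863), so it passed in neither fit. Under 2 scalings chosen after seeing the data and run without NCD replicate 1 it did pass, with a log2 fold change of 0.73 by total counts (adjusted p = 0.0238) and 1.35 by the adipocyte marker sum (adjusted p = 0.0076). These scalings moved the median of all genes to 0.23 and 0.85.

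**Figure D1:**
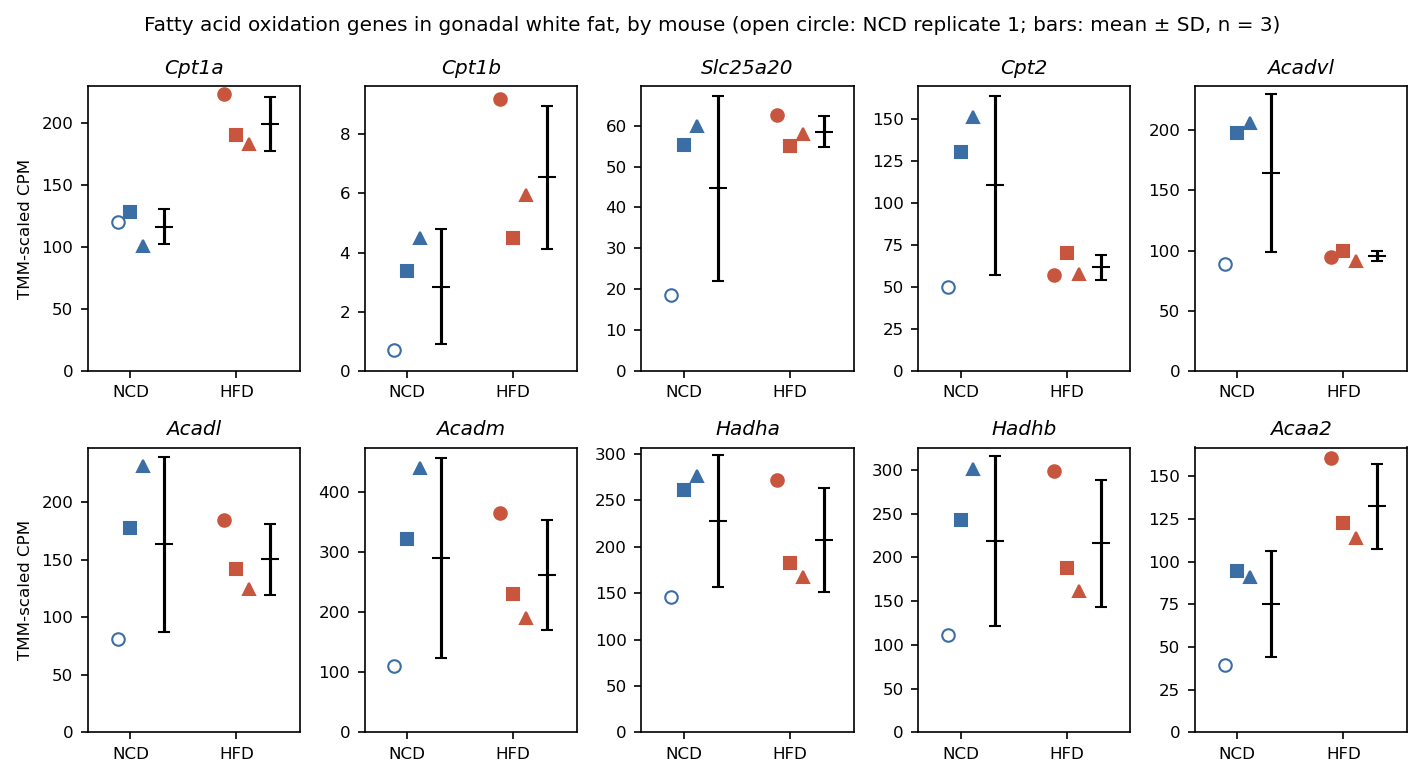
TMM-scaled CPM of the 10 genes in each mouse (points; NCD blue, HFD red; the open circle is NCD replicate 1), with the mean and SD of 3 mice as bars. Cpt1a and Acaa2 are higher in every HFD mouse, while for Cpt2 and Acadvl the open circle lies just below the HFD mice and the other 2 NCD mice lie above them.

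NCD replicate 1 was low for 9 of the 10 genes and not for Cpt1a. Its level of Cpt1a was 1.04 times the mean of NCD replicates 2 and 3. The other 9 genes were at 0.179 times (Cpt1b) to 0.541 times (Hadha) that mean. The markers moved with them: the adipocyte sum was lower in this mouse and the seminal vesicle share higher, as given above. The part of other tissue in the levels of this library was not tested.

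With all 6 mice, the diets did not overlap for 3 of the 10 genes (Cpt1a, Cpt1b and Acaa2, all higher on HFD), against 39.2% of the genes tested. Without NCD replicate 1 they did not overlap for 5, Cpt2 and Acadvl being lower on HFD, against 57.1% of the genes tested. Two-sided exact permutation tests at this size go no lower than p = 0.1, which these 3 genes reached. For the other 7 the permutation p with all mice was 0.4 to 1.0.

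**Figure D2:**
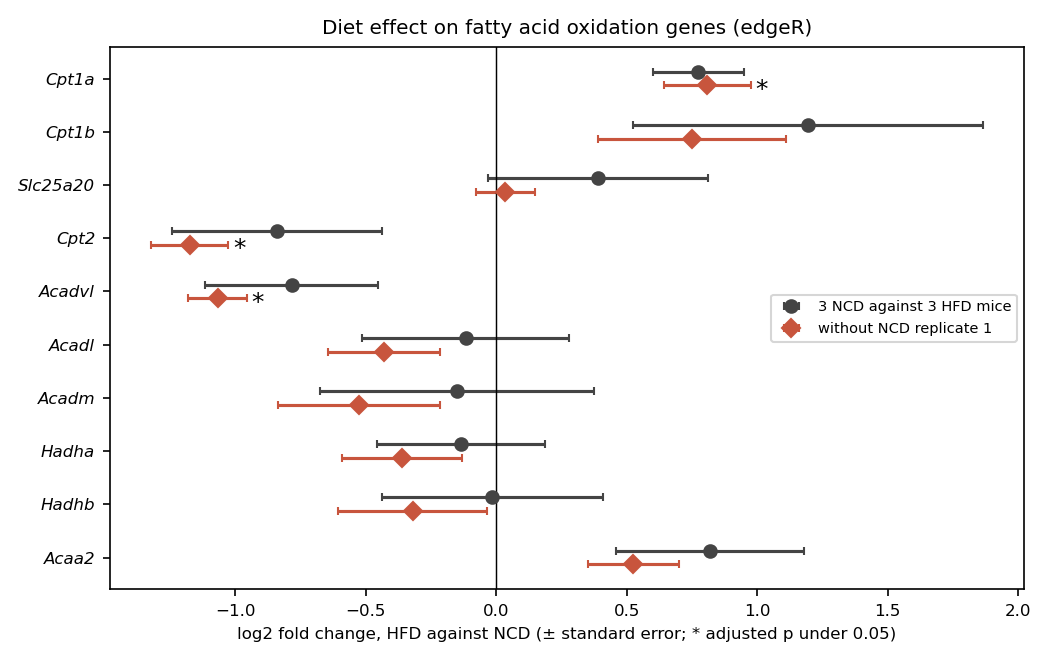
Log2 fold change, HFD against NCD, of the 10 genes in edgeR (horizontal axis; bars are standard errors), with all 6 mice (grey circles) and without NCD replicate 1 (red diamonds); asterisks mark an adjusted p under 0.05. Asterisks stand only at the red diamonds of Cpt1a, at 0.81, Cpt2, at -1.17, and Acadvl, at -1.07.

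Markers of other cells moved with the diet. The summed level of 10 macrophage markers was 518 to 1113 on NCD and 3277 to 5623 on HFD, none of them was at 0 in any library, and 5 of the 10 rose with all mice and 10 of 10 without NCD replicate 1. With all mice 0 of the 10 adipocyte markers passed in edgeR (3 at an unadjusted p under 0.05), and without NCD replicate 1, 5 fell (Cfd, Adrb3, Lipe, Slc2a4 and Plin1). How far these shifts contribute to the levels of the oxidation genes was not tested. Per 100 reads of the adipocyte markers, the 10 oxidation genes together held 12.4, 7.06 and 5.86 on NCD and 12.2, 7.24 and 8.70 on HFD. The overlap rests on NCD replicate 1: the mean log2 difference, HFD against NCD, was 0.19 with all mice and 0.51 without it, while it was -0.03 without NCD replicate 3 and -0.01 without HFD replicate 1. On the same footing Acaa2 stood at 0.641, 0.414 and 0.287 on NCD and 1.14, 0.692 and 0.858 on HFD, without overlap. Cpt2 stood at 0.817, 0.572 and 0.477 on NCD and 0.406, 0.397 and 0.435 on HFD, with every HFD mouse lower. Cpt1b and Slc25a20 did not overlap either, both being higher on HFD. Cpt1a overlapped, at 1.94, 0.562 and 0.318 on NCD and 1.58, 1.07 and 1.38 on HFD, with NCD replicate 1 highest. Acadvl overlapped with and without that library, at 1.44, 0.867 and 0.649 on NCD and 0.672, 0.563 and 0.688 on HFD. Acadl, Acadm, Hadha and Hadhb overlapped with all mice. The share of all genes without overlap on this footing was not computed. Cfd, a large part of the marker sum on NCD, was at 1875, 6340 and 8820 on NCD and 392, 1052 and 659 on HFD. Fabp4, also a large part, overlapped, at 1458, 6134 and 8697 on NCD and 6568, 8195 and 6738 on HFD. Ratios without Cfd were not computed, so those given cannot be read as levels per adipocyte.

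A ratio of 2 genes within a library is free of the scaling between libraries. Of the 45 pairs among the 10 genes, 26 had count ratios that did not overlap between the diets, and 34 without NCD replicate 1. Over the 107333226 pairs of the 14652 tested genes with reads in every mouse, 39.4% did not overlap with all 6 mice and 57.7% without that library. The 26 pairs all had an exact permutation p of 0.1, the lowest possible, and a Benjamini-Hochberg adjusted value of 0.17 over the 45. Apart from the ratio of Cpt1a to Cpt1b, these ratios were chosen for description after the data had been seen.

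Acadvl reads per Acaa2 read were 2.25, 2.096 and 2.26 in the NCD mice and 0.591, 0.814 and 0.802 in the HFD mice. NCD replicate 1 was here no different from the other NCD mice, and the HFD mean was 3.02-fold lower. Cpt2 reads per Acaa2 read were 1.27, 1.38 and 1.66 on NCD and 0.358, 0.574 and 0.507 on HFD. The same held for this ratio, which was 3.04-fold lower on HFD. Within the carnitine shuttle, Slc25a20 reads per Cpt2 read were 0.371, 0.424 and 0.396 on NCD and 1.09, 0.780 and 1.01 on HFD, a 2.39-fold higher mean on the log scale. Cpt1a reads per Cpt2 read were 2.38, 0.983 and 0.667 on NCD and 3.89, 2.70 and 3.17 on HFD. The diets were separate for all 4 of these ratios, although NCD replicate 1 came close to the HFD mice for the last.

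Other ratios overlapped. Cpt2 per Acadvl was 0.567, 0.659 and 0.736 on NCD and 0.605, 0.705 and 0.632 on HFD, with a mean log2 difference of -0.01 (exact permutation p = 1.0). Acadl per Hadhb was 0.725, 0.733 and 0.768 on NCD and 0.620, 0.755 and 0.771 on HFD, and Hadha per Hadhb was 1.31, 1.08 and 0.919 on NCD and 0.911, 0.974 and 1.04 on HFD. In each of these pairs the ranges of the diets cover much of each other. The ratio of Cpt1a to Cpt1b, corrected for exon length, was 115, 25.6 and 15.1 on NCD and 16.3, 28.4 and 20.6 on HFD. Its log2 difference was -0.74 (exact permutation p = 0.7), and without NCD replicate 1 the sign turned, to 0.11 (exact permutation p = 0.8, where the lowest possible is 0.2). Cpt1a was above Cpt1b per kilobase in every mouse.

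**Figure D3:**
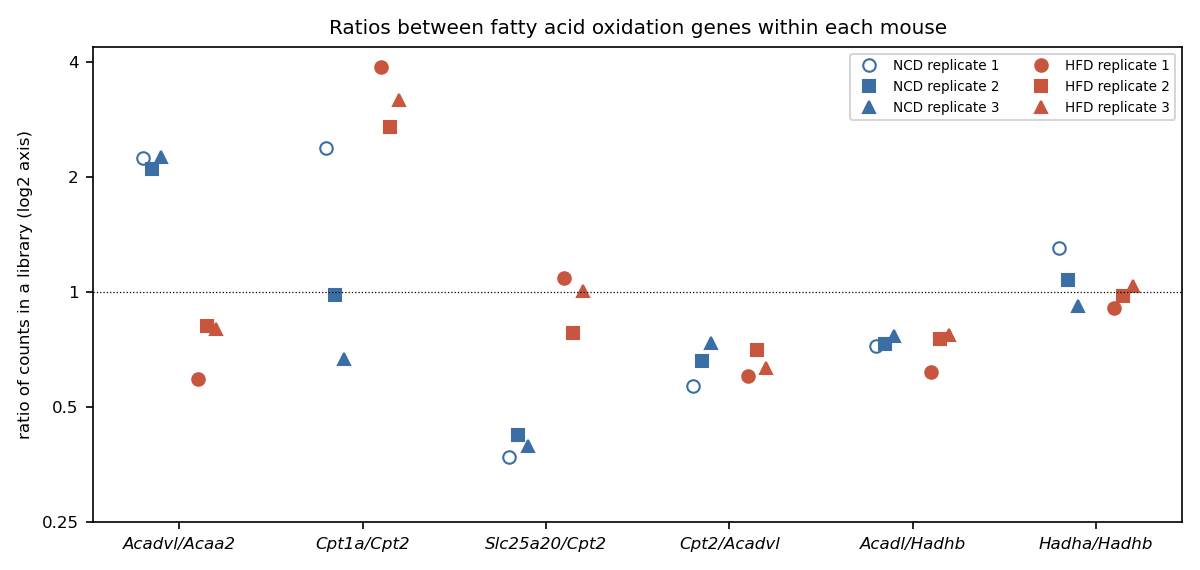
Ratio of the reads of 2 genes within each library, on a log2 axis, for 6 pairs (NCD blue, HFD red; open circle, NCD replicate 1). The 3 pairs on the left do not overlap between the diets, while Cpt2/Acadvl, Acadl/Hadhb and Hadha/Hadhb do.

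Per kilobase of exon, a scale on which levels of different genes can be compared, Acadm had the highest mean level in both diets, 142 on NCD and 128 on HFD, and Cpt1b the lowest, 0.984 and 2.26. The order on NCD was Acadm, Hadhb, Acadl, Acadvl, Hadha, Acaa2, Cpt2, Cpt1a, Slc25a20 and Cpt1b, with Slc25a20 before Cpt1a when NCD replicate 1 was left out. On HFD it was Acadm, Hadhb, Acaa2, Acadl, Hadha, Cpt1a, Acadvl, Slc25a20, Cpt2 and Cpt1b. Acaa2 thus stood 3 places higher on HFD, at a mean of 87.4 against 49.5, and Acadvl 3 places lower, at 44.0 against 75.8. Cpt1a moved from 26.9 to 46.1 and Cpt2 from 46.7 to 26.1, so that Cpt1a lay below Cpt2 on NCD and above it on HFD in mean level. In NCD replicate 1, however, Cpt1a already lay above Cpt2, at 27.7 against 21.2. With the diets pooled, neighbours in the order were compared over the 6 mice on log2(level + 1) with an exact sign-flip test. Acadm was above Hadhb by 0.31 ± 0.182 (SD), Hadhb above Acadl by 0.34 ± 0.117 and Slc25a20 above Cpt1b by 3.51 ± 0.310, each in 6 of 6 mice with a sign-flip p of 0.03125, the smallest 6 mice allow. Adjusted over the 9 neighbouring pairs these were 0.0938, so 0 of 9 passed, and the other 6 pairs had a sign-flip p of 0.0625 to 0.844. No pair could pass unless most of the 9 were at the smallest p, so the adjusted test cannot decide single gaps. The order itself was taken from the same levels.

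As shares of the summed level per kilobase, Acaa2 made up 8.16 ± 0.814% (SD, n = 3) of the 10 transcripts on NCD and 14.6 ± 0.489% on HFD. Acadvl made up 12.5 ± 0.895% on NCD and 7.55 ± 1.47% on HFD, and Cpt2 7.45 ± 0.583% and 4.50 ± 1.12%. Slc25a20 made up 3.95 ± 0.548% and 5.60 ± 0.937%. For these 4 genes, and for Cpt1b at 0.143% and 0.373%, the diets did not overlap, with NCD replicate 1 included. No background was computed for such shares, and in level the diets did not overlap for 39.2% of the genes tested. The shares are parts of a single sum, so a higher share of Acaa2 goes with lower shares elsewhere. The shares of Acadl, Acadm, Hadha, Hadhb and Cpt1a overlapped. Cpt1a made up 8.86% in NCD replicate 1, 4.23% and 2.83% in the other NCD mice and 6.91 to 8.54% on HFD.

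**Figure D4:**
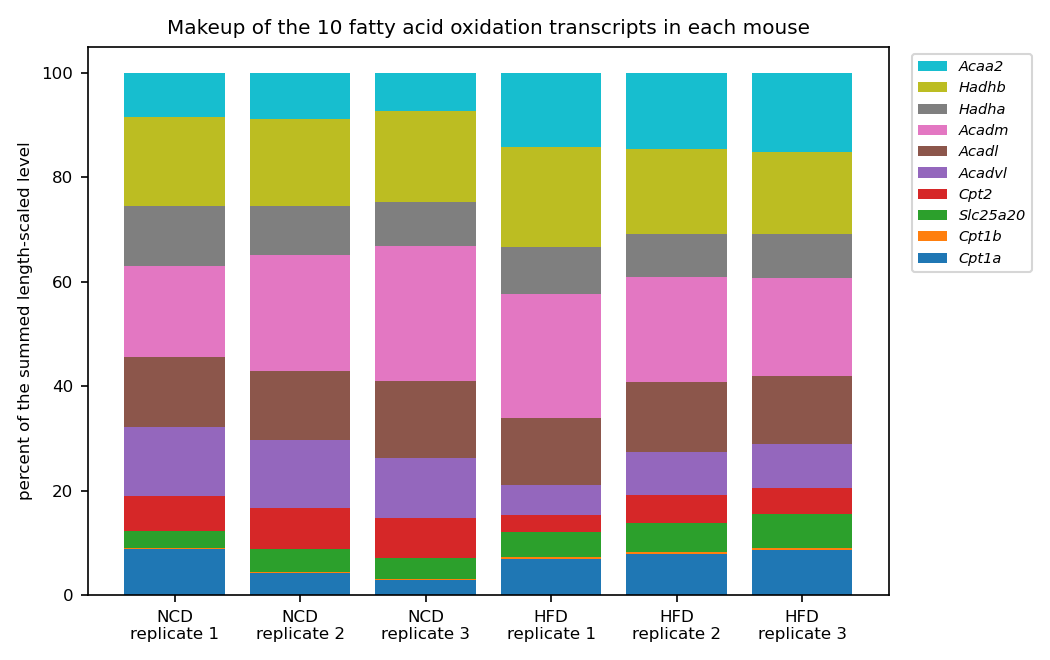
Share of each gene (colours) in the summed level per kilobase of the 10 genes, in percent, for each mouse. The band of Acaa2 is wider in the 3 HFD mice (mean 14.6% against 8.16%) and the band of Acadvl is narrower (7.55% against 12.5%), and NCD replicate 1 looks like the other NCD mice for both.

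Of 13 further enzymes of mitochondrial beta-oxidation, 0 rose and 2 fell with all mice. These were Acadsb, a dehydrogenase of short branched chains, with a log2 fold change of -1.30 ± 0.179 (adjusted p = 0.0223 in edgeR), and Hsd17b10, a dehydrogenase of the third step, with -1.01 ± 0.218 (adjusted p = 0.0473). Without NCD replicate 1, 9 of the 13 fell and 0 rose, with a median of -0.80 against -0.50 with all mice. Echs1, the short-chain hydratase, had -1.46 ± 0.405 with all mice (adjusted p = 0.0782) and -1.78 ± 0.179 without that library (adjusted p = 0.0066). Electron transfer from the dehydrogenases runs through Etfa and Etfb, of which Etfa had 0.22 ± 0.419 with all mice (adjusted p = 0.746) and Etfb, not past the threshold with all mice (adjusted p = 0.451), fell without NCD replicate 1 by 0.68 on the log2 scale (adjusted p = 0.0291).

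Of 3 genes that make or break down malonyl-CoA, 1 fell with all mice and all 3 fell without NCD replicate 1. Acaca, the acetyl-CoA carboxylase of fatty acid synthesis, was at 639, 2200.2 and 2197 on NCD and 91.7, 160.1 and 96.6 on HFD. Each HFD mouse was below every NCD mouse, NCD replicate 1 included, and Acaca fell by 3.85 ± 0.602 on the log2 scale (adjusted p = 0.0253, edgeR). Acacb, the carboxylase of the outer mitochondrial membrane, had 93.3, 345 and 398 on NCD and 49.6, 65.5 and 41.4 on HFD, a log2 fold change of -2.42 ± 0.556 (adjusted p = 0.0536) that passed without NCD replicate 1, at -2.82 ± 0.221 (adjusted p = 0.0054). Mlycd, which breaks malonyl-CoA down, had -0.35 ± 0.208 (adjusted p = 0.301), and -0.51 ± 0.126 without that library (adjusted p = 0.0405).

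Transcription factors and coactivators known for control of oxidation genes (10 genes) had 0 calls with all mice, 4 at an unadjusted p under 0.05, and a median of -0.71. Without NCD replicate 1, 6 fell and 0 rose: Ppara, Pparg, Ppargc1a, Rxra, Esrra and Nr2f2. Ppara, the receptor that drives oxidation genes in liver, was at 8.80, 12.5 and 19.4 on NCD and 5.36, 5.83 and 3.28 on HFD, with a log2 fold change of -1.49 ± 0.379 (adjusted p = 0.0658, edgeR). Ppargc1a, a coactivator of mitochondrial genes, was at 2.13, 6.64 and 6.92 on NCD and 2.51, 1.68 and 0.861 on HFD.

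Of 9 genes known to respond to peroxisome proliferator-activated receptors, a list that includes Cpt1b, 3 rose and 0 fell with all mice. Pdk4, a kinase that turns off pyruvate oxidation, was at 14.0, 33.7 and 22.4 on NCD and 273, 129 and 183 on HFD, a rise of 3.06 ± 0.436 on the log2 scale (adjusted p = 0.0228, edgeR). Angptl4, an inhibitor of lipoprotein lipase, rose by 2.54 ± 0.515 (adjusted p = 0.0425), and Ucp2, an inner-membrane carrier, by 1.68 ± 0.361 (adjusted p = 0.0470). All 3 passed without NCD replicate 1 as well, at 2.81, 2.17 and 2.09. Ucp3, another carrier, fell by 1.42 ± 0.234 without NCD replicate 1 (adjusted p = 0.0149), and had not passed with all mice (adjusted p = 0.259).

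Among 10 genes that supply or consume acyl-CoA and carnitine, 9 of which were tested, Acsl5, an acyl-CoA synthetase, rose by 0.73 ± 0.125 on the log2 scale (adjusted p = 0.0293, edgeR), and Acot2, a mitochondrial thioesterase, fell by 1.01 ± 0.210 (adjusted p = 0.0447). Both passed without NCD replicate 1 as well, at 0.75 and -1.13. Acsl1, the main synthetase of adipocytes, was at 655, 1956 and 2123 on NCD and 1463, 1150 and 873 on HFD, which overlap. In peroxisomal oxidation, Abcd3, a transporter of the peroxisomal membrane, fell by 0.97 ± 0.154 (adjusted p = 0.0253), and by 0.97 ± 0.138 without NCD replicate 1 (adjusted p = 0.0110).

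Other mitochondrial pathways gave mostly lower values on HFD. All 16 genes of the tricarboxylic acid cycle had a negative log2 fold change with all mice, with a median of -0.79, of which 1 (Idh3g) passed, and 14 fell without NCD replicate 1. For 16 subunits of complex I of the respiratory chain the median was -0.79, with 0 calls (15 at an unadjusted p under 0.05) with all mice and 15 falls without NCD replicate 1. Of 15 genes of branched-chain amino acid breakdown, 6 fell with all mice and 15 without that library, with medians of -1.33 and -1.45. Whether the 10 fatty acid oxidation genes differ from these lists was not tested.

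**Figure D5:**
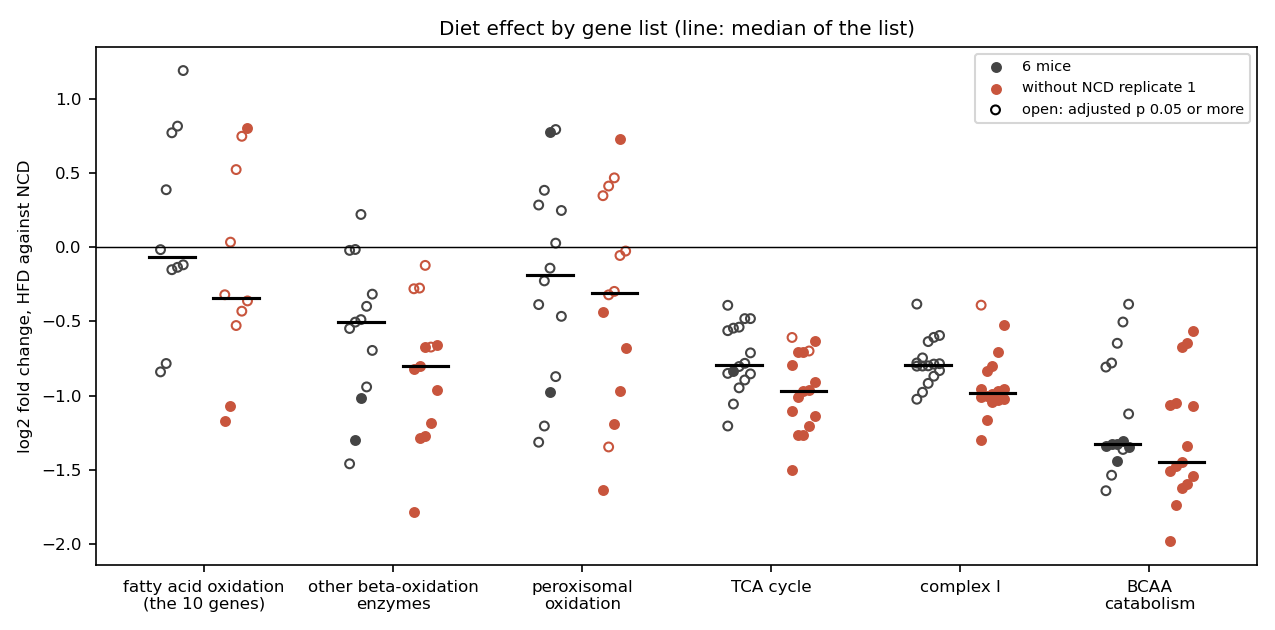
Log2 fold change, HFD against NCD, of each gene in 6 lists, with all 6 mice (grey) and without NCD replicate 1 (red); filled points have an adjusted p under 0.05 and lines are medians. The 10 genes spread on both sides of 0 (medians -0.07 and -0.34), and all genes of the tricarboxylic acid cycle, complex I and branched-chain amino acid lists lie below 0.

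Outside these lists, the 5 genes whose log2 level followed the mean of the 10 members most closely over the 6 mice were Ctcfl, Cd36, Aplp2, F2rl3 and Ttyh2, with Pearson r from 0.995 to 0.998. This is a description of 6 points, of which NCD replicate 1 was the lowest for all 5 genes. Cd36, the fatty acid transporter of adipocytes and macrophages, was at 764, 3528 and 4397 on NCD and 4861, 2933 and 2672 on HFD. Ctcfl and F2rl3 were near the floor, at 0.244 to 1.53 and 0.426 to 1.58.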

How the data were processed

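RNA-seq of gWAT from 3 NCD and 3 HFD mice was used as deposited by the authors: unnormalized read counts, with a column for each mouse and genes listed by NCBI identifier. The submitters' processing notes name bcl2fastq 2.20.0, Trimmomatic, HISAT2 2.1.0, StringTie 1.3.4d and DESeq2, and the builds mm10 and GRCm38. The annotation, strand setting and read filters were not found in the sources used. The labels name a stranded TruSeq mRNA kit. The third HFD column carries the number 4 in its name, and 0 columns were without a sample.

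Counts were filtered (edgeR filterByExpr, minimum count 10, minimum total 15), TMM-scaled and tested with edgeR 4.0.16 (R 4.3.3) by glmQLFit and glmQLFTest, adjusting p-values by Benjamini-Hochberg over 15241 genes (threshold 0.05). DESeq2 1.42.0 was an alternative. Standard errors are the absolute log2 fold change over the root of the F statistic. CPM and per-kilobase levels were computed here from the deposited counts, the latter with exon unions of GENCODE vM21 basic transcripts, found for 17793 of 19790 genes. The authors' lengths may differ. Permutation and sign-flip tests were exact and two-sided. The fit was tested on simulated data.

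The 10 genes and all lists were chosen with earlier results of these data known. Genes outside the lists are named by their correlation with the members; within the lists, genes past the threshold are named, as are genes of the further beta-oxidation, malonyl-CoA and regulator lists. Acsl1 was named after its values were seen. Some genes of the lists are not reported here. The series' design calls the 3 samples of a diet biological replicates. Alternatives were another scaling, no filter, leaving out seminal vesicle genes, a replicate block and leaving out each mouse.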

Additional observations from a re-analysis of the deposited data

How the results depend on the processing

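Directions of Cpt1a, Cpt1b, Slc25a20, Cpt2, Acadvl and Acaa2 were the same under all 15 alternatives run, while those of Acadl, Acadm, Hadha and Hadhb were not, and none of these 4 passed the threshold in any. Where a direction turned, the cause was not tested. Total-count scaling, which moves the median of all genes to 0.45, gave Acadl 0.23, Acadm 0.16, Hadha 0.25 and Hadhb 0.33, all below that median. With the adipocyte marker sum as library size (chosen after seeing the data, as were the combined settings; median -0.27) Acadl was 0.11, Acadm 0.21 and Hadhb 0.20. The same scaling without NCD replicate 1 (median 0.85) gave 0.43, 0.34 and 0.54, and 0.48 for Hadha, all below that median. Leaving out seminal vesicle genes gave 0.0028 for Hadhb. Over the fits that left out one mouse, Acadl ranged from -0.43 to 0.23, Acadm from -0.53 to 0.29, Hadha from -0.37 to 0.043, Hadhb from -0.32 to 0.30, and the log2 ratio of Cpt1a to Cpt1b from -1.35 to 0.11. Genes called numbered 1139, between 2 and 3234 over those fits (2 without NCD replicate 2, NCD replicate 3 or HFD replicate 1, 7 without HFD replicate 2, 4 without HFD replicate 3, and 3234 without NCD replicate 1), 3853 with DESeq2 (54.5% higher, against 74.6% in edgeR; 3010 genes had no adjusted p), 26 with the adipocyte marker sum (23.1% higher), 6717 with it and without NCD replicate 1 (93.4% higher), 3498 by total counts without NCD replicate 1, and 803 without a filter. Of the 10 genes, between 0 and 3 were called when one mouse was left out, and 1 with DESeq2, beside 3853 of 16780 genes. With seminal vesicle genes left out 1 was called (Cpt1a, adjusted p = 0.0467 in edgeR), beside 1125 of 15251 genes tested. Without NCD replicate 1, 4 were called by the adipocyte marker sum (Cpt1a, Cpt1b, Slc25a20 and Acaa2, higher), beside 6717 of 15806 genes tested. By total counts without that library 4 were called (Cpt1a and Acaa2 higher, Cpt2 and Acadvl lower), beside 3498 of 15510 genes tested. The replicate numbers are shared by both diets, and no label used here says that they pair the mice. Correlations of deviations between mice of the same number were -0.050, -0.031 and -0.007, which cannot show whether the mice were paired. A replicate block left 12 genes called (41.7% higher), 0 of the 10, with Hadhb at 0.031.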
